A study of Mus musculus with 13 samples.

Results

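Nox4, the gene of an NADPH oxidase, and 9 genes of antioxidant enzymes (Sod3, Gpx3, Cat, Nqo1, Hmox1, Gclc, Gclm, Txnrd1 and Srxn1) were followed through RNA sequencing of mouse lung fibroblasts. These 10 genes were picked by symbol from the 43346 genes of the deposited expression table, where each has 1 entry, and all 10 passed the filter on low values. The series calls the cells of every group Col1a1-GFP fibroblasts, whose fluorescent reporter is driven by the promoter of Col1a1 and so follows transcription of a collagen gene. Of the 13 libraries, 2 came from sham-treated mice and 8 from mice given bleomycin, whose lung injury is followed by fibrosis, 3 of them taken at day 14 and 5 at day 30. The other 3 came from mice at day 14 after pneumonectomy, an operation that takes out lung tissue and sets off growth of what is left. The sham and bleomycin mice were Col1a1-GFP mice of 8 weeks. The sham titles give no day and no procedure, and the same 2 libraries were the reference in every comparison with sham. For the pneumonectomy libraries the sample labels give primary sorted fibroblasts of lung without strain or age in weeks, and the header of the table calls the mice of all 4 groups young, so preparation and operation cannot be told apart there. No label says that each library came from its own mouse, and p-values therefore measure the spread between these libraries.

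NADPH oxidases move electrons from NADPH to oxygen. NOX4 differs from the other family members in that it makes mainly hydrogen peroxide and needs no cytosolic activating subunits, so that its output follows its own abundance, and in lung fibroblasts it is known as a gene induced by TGF-beta and tied to myofibroblast differentiation. Superoxide dismutases turn superoxide into hydrogen peroxide. Catalase removes that peroxide, as do glutathione peroxidases and peroxiredoxins at the expense of glutathione or thioredoxin. Many of these enzymes, among them those encoded by Hmox1, Nqo1, Gclc, Gclm, Txnrd1 and Srxn1, are targets of the transcription factor NRF2 (gene Nfe2l2), which KEAP1 marks for degradation and which binds antioxidant response elements together with small MAF proteins, where BACH1 competes with it.

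The values are RPKM, reads scaled to the length of the gene and the depth of the library, and an estimated 67.6 to 200.3 megareads lay behind each library, with the day 30 libraries the deepest, from 132.7 megareads. The 10 genes rested on 115 reads or more in every library by estimate, with the lowest numbers for Nqo1 (115 to 411) and the highest for Sod3 (19022 to 86197). The 6 fibroblast markers were detected in every group, with a summed level of 2694 to 4434 RPKM per library, a sum whose members moved in opposite directions. At day 14 after bleomycin 1 of the 6 was higher than sham (Col1a1, 554 ± 165 to 1373 ± 230.1 RPKM) and 3 lower: Dcn went from 1619 ± 335 to 139 ± 26.9 RPKM, Lum from 149.98 ± 23.0 to 37.3 ± 0.865 RPKM and Pdgfra from 64.5 ± 8.40 to 36.9 ± 6.36 RPKM. In that comparison 33.4% of all genes tested were higher and 29.9% lower. Markers of other cells were present too. The 10 endothelial markers summed to 298 to 578 RPKM at day 14 after bleomycin against 13.2 to 44.5 RPKM in all other libraries, and the 10 macrophage markers to 155 to 764 RPKM in the 8 bleomycin libraries against 28.03 to 54.1 RPKM in the sham and pneumonectomy libraries. Day 30 replicate 3 stood apart with 1206 RPKM of 7 alveolar epithelial markers, where the other day 30 libraries had 6.23 to 14.5 RPKM. Y-linked transcripts were listed at 0 in all day 30 libraries, which had Xist at up to 29.2 RPKM, were present at day 14 after bleomycin and after pneumonectomy, and were joined by Xist in sham replicate 1 but not in sham replicate 2, so sex and day 30 cannot be told apart.

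**Figure D1:**
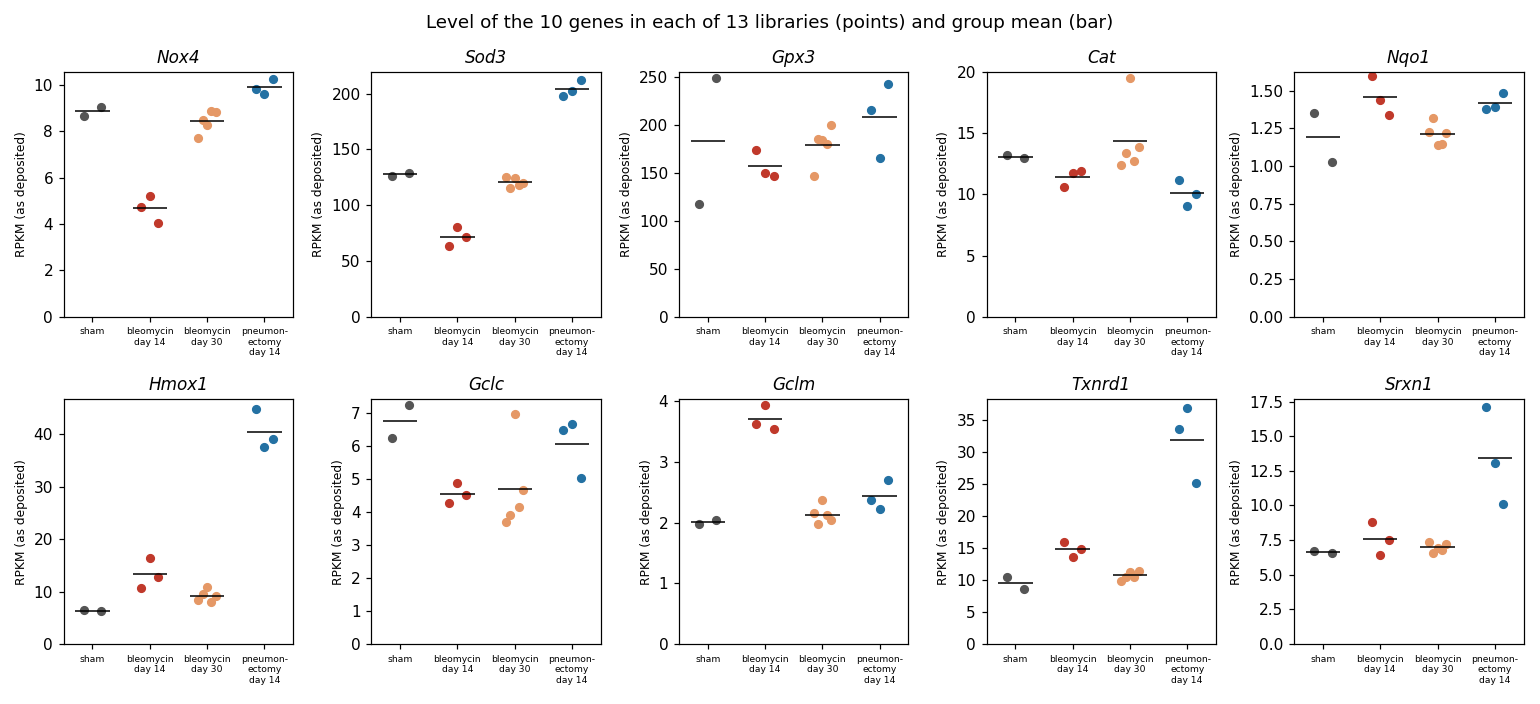
Level of the 10 genes in RPKM as deposited, with each of the 13 libraries as a point and the group mean as a bar, on axes that start at 0. Nox4 and Sod3 are lowest in the 3 day 14 bleomycin libraries, Hmox1, Txnrd1 and Srxn1 are highest in the 3 pneumonectomy libraries, and a single day 30 library carries the highest Cat (19.5 RPKM).

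Nox4 was lower 14 days after bleomycin than in every other group. On mm10 it lies on chromosome 7 from 87246096 to 87398710, on the plus strand. Its level was 8.65 and 9.05 RPKM in the sham libraries, 4.75, 5.22 and 4.05 RPKM at day 14 after bleomycin, 7.72, 8.50, 8.27, 8.87 and 8.84 RPKM at day 30, and 9.83, 9.62 and 10.3 RPKM after pneumonectomy. The 3 day 14 bleomycin libraries thus lay below the other 10 with no overlap, the pneumonectomy libraries lay above all others, and the sham and day 30 libraries overlapped. Against sham, Nox4 fell by 1.15 ± 0.10 on the log2 scale at day 14 after bleomycin (SE, n = 3 and 2, adjusted p = 1.58e-06 in limma), to 0.449 of the sham level after scaling, and this change was -1.22 to -1.03 when any 1 library was left out. Without sham replicate 1, the library with Xist, it was -1.19 (adjusted p = 3.02e-05). From day 14 to day 30 Nox4 rose by 0.97 ± 0.08 (adjusted p = 1.11e-06), and at day 30 it differed from sham by -0.19 ± 0.09 (adjusted p = 0.139), which was not called.

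After pneumonectomy, Nox4 differed from sham by 0.38 ± 0.10 (adjusted p = 0.00963). That call depended on the scaling between libraries and on 1 control, since the change was 0.16 on the scale as deposited (adjusted p = 0.178), 0.25 with upper-quartile scaling (adjusted p = 0.0565) and 0.35 without sham replicate 1 (adjusted p = 0.057). Set directly against pneumonectomy at the same day, bleomycin gave a Nox4 level lower by 1.53 ± 0.09 (adjusted p = 1.02e-07), or 0.345 of that level, a difference that was called in every alternative run. These are bulk libraries, in which fewer cells of a type and less RNA per cell cannot be told apart. Nox4 is also known from endothelium, and the endothelial marker sum was highest in the group where Nox4 was lowest. Of the 6 fibroblast markers 3 were lower there than in sham (Dcn, Lum and Pdgfra), beside 29.9% of all genes. A further 1 was higher (Col1a1), beside 33.4% of all genes, and 2 were not called. The part of these cells in the Nox4 level was not tested.

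The genes whose levels followed Nox4 most closely over the 13 libraries, by Pearson correlation of scaled log2 values and with no p, were Pld1 (r = 0.989), Atrnl1 (0.983), Tnfsf13b (0.982), Zfr (0.982) and Leprel2 (0.980). The libraries fall into 4 groups, and such a correlation mostly reflects the group means. Tnfsf13b, which encodes the B-cell survival factor BAFF, had 15.1 ± 1.52 RPKM in sham, 6.00 ± 0.807 at day 14 after bleomycin, 15.7 ± 0.757 at day 30 and 19.9 ± 2.27 after pneumonectomy. Leprel2, the prolyl 3-hydroxylase P3H3 of collagen, had 27.6 ± 3.05, 16.4 ± 0.617, 25.4 ± 1.00 and 27.7 ± 1.75 RPKM in the same order. Pld1, a phospholipase D, had 1.75, 1.12, 1.63 and 1.78 RPKM. These genes were chosen for their likeness to Nox4, so their levels are a description.

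**Figure D2:**
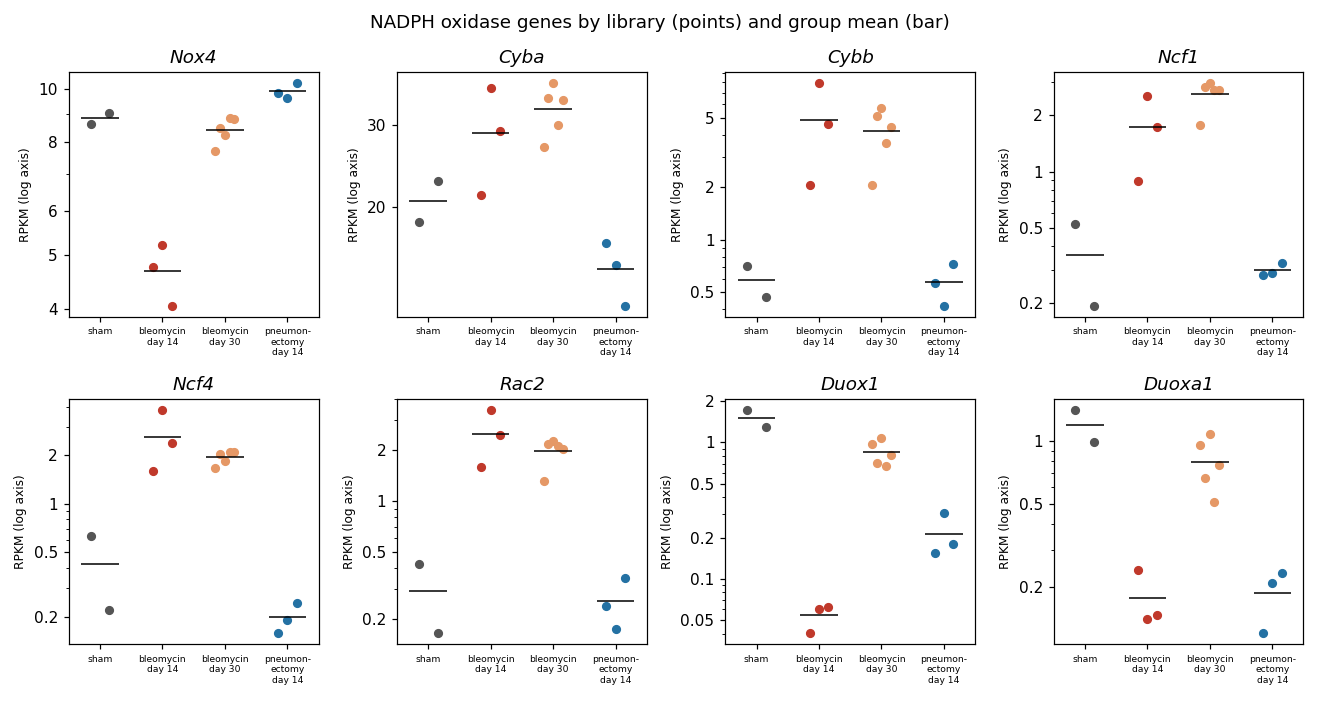
NADPH oxidase genes by library (points) and group mean (bars), in RPKM on log axes that differ between panels. Nox4 is low at day 14 after bleomycin, whereas Cybb and its cytosolic partners Ncf1, Ncf4 and Rac2 are high in both bleomycin groups and Duox1 is lowest at day 14 (0.0548 RPKM).

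Of 17 further genes of the family and its subunits 11 were tested, and at day 14 after bleomycin 7 were higher than sham, 3 lower and 1 not called, where 33.4% of all 12938 genes tested were higher and 29.9% lower. The share higher was above that background and the share lower near it, and their median log2 change was 0.34, beside 0.02 for all genes. Those that rose include Cybb (picked after its values were seen, as was Ncf1 in the plot of oxidase genes), the catalytic subunit of the phagocyte oxidase NOX2, from 0.590 ± 0.171 to 4.88 ± 2.94 RPKM (log2 change 2.45 ± 0.49, adjusted p = 0.00105), the GTPase gene Rac2 (2.52 ± 0.35) and Ncf4 (2.17 ± 0.34), which encodes a cytosolic subunit. Rac1 and Poldip2, which most cells express, rose less, by 0.33 ± 0.08 to 62.9 ± 4.76 RPKM and by 0.34 ± 0.08 to 5.08 ± 0.0504 RPKM. The macrophage marker sum moved with Cybb: it was 155, 512 and 385 RPKM in day 14 bleomycin replicates 1, 2 and 3. Cybb was lowest in replicate 1 (2.07 RPKM) and highest in replicate 2 (7.94 RPKM). Neutrophil markers were higher as well: 5 of 6 were called higher than sham and 0 lower, beside 33.4% and 29.9% of all genes. Their sums in the same replicates were 35.8, 37.9 and 26.6 RPKM, with the lowest in replicate 3. The part of macrophages and neutrophils in the levels of Cybb, Rac2 and Ncf4 was not tested. Duox1, a dual oxidase of epithelia, fell from 1.503 ± 0.304 to 0.0548 ± 0.0125 RPKM (-3.48 ± 0.26, adjusted p = 5.38e-07), together with its maturation factor Duoxa1 (-2.39 ± 0.31). Alveolar epithelial markers summed to 7.85 to 25.0 RPKM in these libraries beside 4.74 to 15.5 RPKM in sham. Airway markers summed to 1.36 to 9.45 RPKM beside 2.51 to 8.43 RPKM. The part of epithelial cells in the Duox1 level was not tested. Noxo1, an organiser subunit, changed by -1.36 ± 0.32.

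Cyba encodes p22phox, the membrane partner that NOX4 needs, and did not share the course of Nox4. It had 20.6 ± 2.94 RPKM in sham, 28.8 ± 7.39 at day 14 after bleomycin, 32.3 ± 3.94 at day 30 and 14.7 ± 2.24 after pneumonectomy. It was not called against sham in any group (0.21 ± 0.20, 0.53 ± 0.19 and -0.27 ± 0.20 in that order), and it was higher at day 14 after bleomycin than after pneumonectomy by 0.48 ± 0.18 (adjusted p = 0.0342). After pneumonectomy 0 of the 11 oxidase genes were higher than sham and 2 lower in the limma fit, where 22.6% of all genes were higher and 19.3% lower. At an unadjusted p under 0.05 the counts were 1 and 2. The lower ones were Duox1 (-2.23 ± 0.26) and Duoxa1 (-2.04 ± 0.31), and Cybb differed by 0.15 ± 0.49 and was not called.

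Of the 10 genes, 3 were higher at day 14 after bleomycin than in sham (Gclm, Hmox1 and Txnrd1), 4 lower (Nox4, Sod3, Gclc and Cat) and 3 not called, against the background of 33.4% higher and 29.9% lower. After pneumonectomy 7 were higher (Hmox1, Txnrd1, Srxn1, Sod3, Gclm, Nqo1 and Nox4), 0 lower and 3 not called in the limma fit, against 22.6% and 19.3%, and 0 were lower at an unadjusted p under 0.05 too. Both comparisons use the same 2 sham libraries. Their median log2 changes were -0.22 and 0.48, with 0.02 and 0.01 over all genes. Scaling bears on these counts: on the scale as deposited the median of all genes was 0.26 at day 14 after bleomycin and -0.21 after pneumonectomy, both against sham. Calls over all genes then split into 6193 higher and 2451 lower after bleomycin, in place of 4318 and 3870, and into 1762 higher and 5185 lower after pneumonectomy, in place of 2930 and 2500 (2177 and 3994 with upper-quartile scaling). The member counts became 4 higher and 3 lower after bleomycin and 5 higher and 0 lower after pneumonectomy on the scale as deposited.

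**Figure D3:**
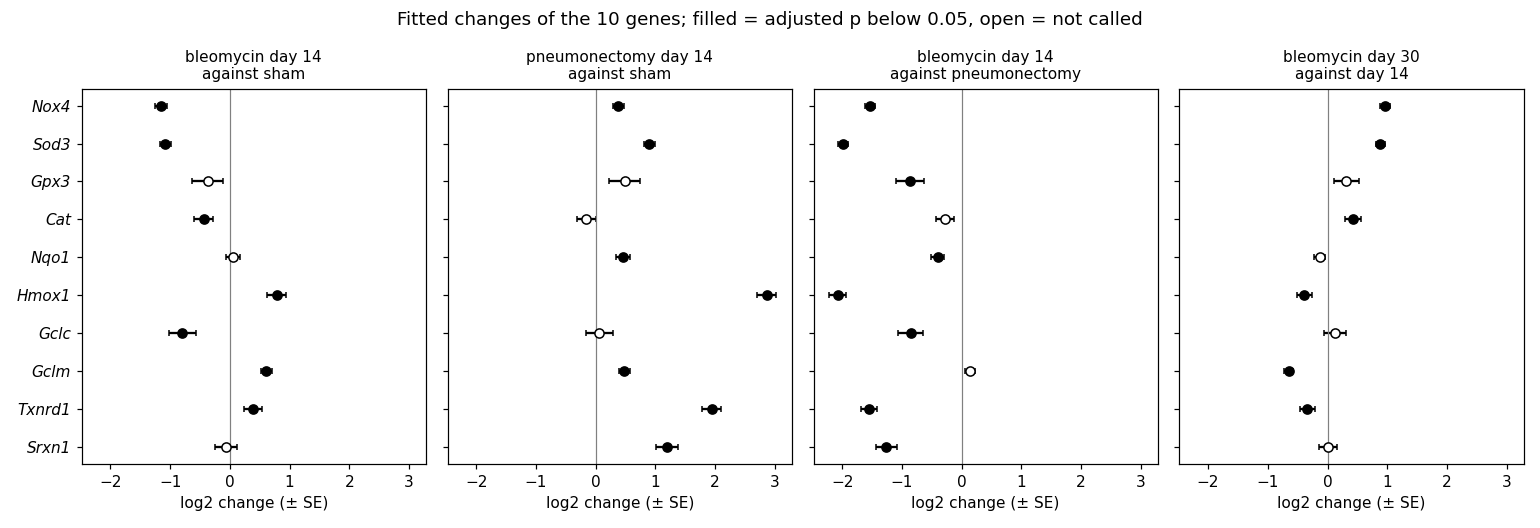
Fitted log2 change of each gene with its standard error in 4 comparisons, filled where the limma adjusted p was below 0.05 and open where it was not. Hmox1 has the largest change after pneumonectomy (2.86) and Nox4 the largest at day 14 after bleomycin against sham (-1.15), among the 10 genes.

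Sod3 encodes the secreted superoxide dismutase that sits in the extracellular matrix, and it followed the same order as Nox4 with a wider spread between groups. On chromosome 5 it spans 52363791 to 52371418. Its level was 126 and 129 RPKM in sham, 63.7, 80.1 and 71.1 RPKM at day 14 after bleomycin, 125, 115, 125, 118 and 119.98 RPKM at day 30, and 198, 203 and 212 RPKM after pneumonectomy. The day 14 bleomycin libraries were below all others and the pneumonectomy libraries above all others. The log2 change against sham was -1.08 ± 0.09 after bleomycin (adjusted p = 1.70e-06) and 0.90 ± 0.09 after pneumonectomy (adjusted p = 3.45e-05), and the direct difference between these groups was -1.98 ± 0.08 (adjusted p = 1.99e-08). From day 14 to day 30 Sod3 rose by 0.88 ± 0.07 (adjusted p = 1.52e-06), and at day 30 it differed from sham by -0.20 ± 0.09 (adjusted p = 0.098), which was not called. The 4 calls held in every alternative run. The 8 markers of smooth muscle and pericytes, cells that also express Sod3, summed to 139.6 and 271 RPKM in sham, 94.5 to 126 RPKM at day 14 after bleomycin, 119 to 153 RPKM at day 30 and 266 to 390.5 RPKM after pneumonectomy. By gene, 1 was higher than sham, 3 lower and 4 not called at day 14 after bleomycin (median 0.08), beside 33.4% and 29.9% of all genes. After pneumonectomy 5 were higher, 1 lower and 2 not called, beside 22.6% and 19.3%. The part of these cells in the Sod3 level was not tested.

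Gpx3 encodes the secreted, selenium-containing glutathione peroxidase and had the highest level per length of the 10 genes, yet the sham libraries did not fix its reference level. They had 118 and 249 RPKM, a range that held every library at day 14 after bleomycin (174, 151 and 147 RPKM), at day 30 (147, 186, 185, 181 and 200.3 RPKM) and after pneumonectomy (216, 166 and 243 RPKM). Gpx3 was not called against sham in any group. Its change at day 14 after bleomycin was -0.37 ± 0.26 (adjusted p = 0.234), and it was -0.92 without sham replicate 1 (adjusted p = 0.00427) and 0.16 without sham replicate 2 (adjusted p = 0.547). After pneumonectomy the change of 0.49 ± 0.26 (adjusted p = 0.159) became -0.05 and 1.02 in the same way. Without sham in the contrast, Gpx3 was lower at day 14 after bleomycin than after pneumonectomy by 0.86 ± 0.24 (adjusted p = 0.0062), although the deposited values of the groups overlapped, and that call was lost on the scale as deposited (-0.39, adjusted p = 0.145).

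Cat, the gene of the peroxisomal enzyme catalase, changed little. It had 13.2 and 12.99 RPKM in sham, 10.6, 11.8 and 11.9 RPKM at day 14 after bleomycin, 12.4, 13.4, 19.5, 12.7 and 13.9 RPKM at day 30 and 11.2, 9.09 and 10.0 RPKM after pneumonectomy. The day 14 bleomycin and the pneumonectomy libraries both lay below sham. The change at day 14 after bleomycin was -0.44 ± 0.16 (adjusted p = 0.0344), a call that was lost when any 1 of the 5 libraries was left out (-0.45 to -0.41, adjusted p = 0.0613 to 0.115). After pneumonectomy it was -0.16 ± 0.16 (adjusted p = 0.463). Cat rose from day 14 to day 30 by 0.43 ± 0.13 (adjusted p = 0.0138), and by 0.31 (adjusted p = 0.00276) without day 30 replicate 3, the library with the alveolar epithelial markers and the highest Cat. That change was 0.31 and not called on the scale as deposited (adjusted p = 0.0581).

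Hmox1 had the largest change of the 10 genes. It encodes heme oxygenase-1, which opens the heme ring and releases iron, carbon monoxide and biliverdin, and it lies on chromosome 8 from 75093621 to 75100589. Its level was 6.48 and 6.30 RPKM in sham, 10.8, 16.4 and 12.9 RPKM at day 14 after bleomycin, 8.42, 9.60, 10.9, 8.11 and 9.17 RPKM at day 30, and 44.8, 37.6 and 39.1 RPKM after pneumonectomy. Every pneumonectomy library lay far above every other library, and both sham libraries lay below all others. The log2 change against sham was 2.86 ± 0.16 after pneumonectomy (adjusted p = 8.83e-07), a 7.27-fold difference, and 0.79 ± 0.16 at day 14 after bleomycin (adjusted p = 0.000997), a 1.72-fold difference. Hmox1 fell by 0.39 ± 0.13 from day 14 to day 30 (adjusted p = 0.0197). Without day 14 bleomycin replicate 2 this was -0.24 and not called (adjusted p = 0.104). At day 30 it differed from sham by 0.40 ± 0.14 (adjusted p = 0.057), with no overlap of the libraries.

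**Figure D4:**
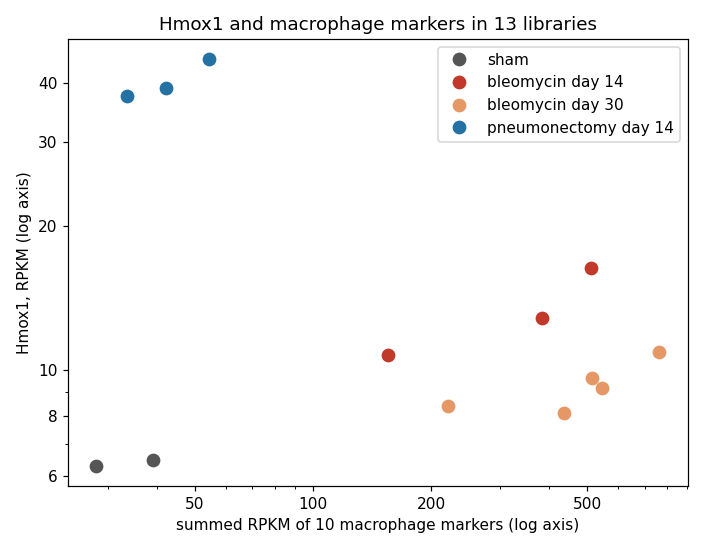
Level of Hmox1 (vertical, log axis) against the summed level of 10 macrophage markers (horizontal, log axis) in RPKM, 1 point per library. The 3 pneumonectomy libraries have the highest Hmox1 (37.6 to 44.8 RPKM) at marker sums of 33.5 to 54.1 RPKM, while the bleomycin libraries have 155 to 764 RPKM of the markers.

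Hmox1 is abundant in macrophages as well. At day 14 after bleomycin 9 of 10 macrophage markers were higher than sham and 0 lower, beside 33.4% and 29.9% of all genes. Hmox1 had the same order over the 3 libraries as the marker sum (155, 512 and 385 RPKM beside 10.8, 16.4 and 12.9 RPKM of Hmox1). The part of macrophage RNA in the Hmox1 level of the bleomycin libraries was not tested. After pneumonectomy 0 of 10 macrophage markers were higher and 0 lower in the limma fit (1 and 0 at an unadjusted p under 0.05), beside 22.6% and 19.3% of all genes. Their sum was 33.5 to 54.1 RPKM against 28.03 to 39.2 RPKM in sham. Markers of other cells were higher than sham there, beside the same shares of all genes. All 5 mesothelial markers were higher, with sums of 11.3 to 37.6 RPKM beside 1.92 to 2.96 RPKM. Of 10 endothelial markers 9 were higher and 1 lower, with sums of 18.7 to 44.5 RPKM beside 21.6 to 25.1 RPKM. Of 8 smooth muscle and pericyte markers 5 were higher, 1 lower and 2 not called, with sums of 266 to 390.5 RPKM beside 139.6 and 271 RPKM. The 7 alveolar epithelial markers summed to 36.0 to 86.6 RPKM beside 4.74 to 15.5 RPKM in sham. Of the 5 tested, however, 0 were called in the limma fit, and 0 at an unadjusted p under 0.05, beside the same shares of all genes. The part of these cells in the Hmox1 level was not tested. Airway markers summed to 438, 64.2 and 10.6 RPKM in pneumonectomy libraries A, B and C, whose Hmox1 levels were 44.8, 37.6 and 39.1 RPKM. Without library A the Hmox1 change was 2.77 (adjusted p = 1.11e-05).

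Txnrd1 and Srxn1, which act in the thioredoxin system, rose after pneumonectomy with Hmox1. Thioredoxin reductase 1, the product of Txnrd1 (chromosome 10, 82833951 to 82897712), passes electrons from NADPH to thioredoxin, and sulfiredoxin, the product of Srxn1 (chromosome 2, 152105516 to 152111376), restores overoxidised peroxiredoxins. Txnrd1 had 10.4 and 8.67 RPKM in sham, 15.9, 13.6 and 14.9 RPKM at day 14 after bleomycin, 9.83, 10.5, 11.3, 10.5 and 11.5 RPKM at day 30, and 33.7, 36.9 and 25.1 RPKM after pneumonectomy. The pneumonectomy libraries were the highest, the day 14 bleomycin libraries came next without overlap, and sham and day 30 overlapped. The change against sham was 1.94 ± 0.16 after pneumonectomy (adjusted p = 7.41e-06) and 0.39 ± 0.16 at day 14 after bleomycin (adjusted p = 0.0472). The second was a borderline call, lost in 5 of the other settings (0.34 to 0.39, adjusted p = 0.0524 to 0.0666) and without sham replicate 2 (0.25, adjusted p = 0.299), day 14 bleomycin replicate 1 (0.31, adjusted p = 0.134) or replicate 3 (0.41, adjusted p = 0.0706).

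For Srxn1 the levels were 6.70 and 6.59 RPKM in sham, 8.79, 6.42 and 7.53 RPKM at day 14 after bleomycin, 7.36, 6.57, 6.91, 6.77 and 7.23 RPKM at day 30, and 17.1, 13.04 and 10.1 RPKM after pneumonectomy. The pneumonectomy libraries were above all others, and the other groups overlapped. Srxn1 was higher than sham after pneumonectomy by 1.19 ± 0.19 (adjusted p = 0.00054), and at day 14 after bleomycin it differed by -0.06 ± 0.19 (adjusted p = 0.786). Both genes were higher after pneumonectomy than at day 14 after bleomycin, Txnrd1 by a log2 difference of bleomycin minus pneumonectomy of -1.55 ± 0.14 (adjusted p = 1.77e-06) and Srxn1 of -1.26 ± 0.17 (adjusted p = 4.19e-05).

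The sequences before the starts of Srxn1, Txnrd1 and Gclm are shown because they hold the motifs that NRF2 and the AP-1 factors are known to bind, and that of Nox4 because its levels open the results. RefSeq windows (GRCm38.p6) from 250 bases before to 50 after a start were found for 7 of the 10 genes, with 3 windows for Txnrd1. Sod3, Hmox1 and Gclc had none. Both strands were searched for the core TGACNNNGC of the antioxidant response element, found in 12.4% of the 32851 windows in the table, and for the AP-1 motif TGANTCA, found in 7.8%. Below are the 250 bases before the start, 5′ to 3′ on the plus strand, with matches in capitals.
Srxn1, chr2:152105274-152105523: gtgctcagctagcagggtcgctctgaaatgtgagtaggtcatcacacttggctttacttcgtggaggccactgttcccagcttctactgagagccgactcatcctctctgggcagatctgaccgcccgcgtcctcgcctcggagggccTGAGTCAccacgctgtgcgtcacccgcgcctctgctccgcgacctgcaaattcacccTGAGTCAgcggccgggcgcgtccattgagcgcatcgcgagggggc
Txnrd1, second start, chr10:82858956-82859205: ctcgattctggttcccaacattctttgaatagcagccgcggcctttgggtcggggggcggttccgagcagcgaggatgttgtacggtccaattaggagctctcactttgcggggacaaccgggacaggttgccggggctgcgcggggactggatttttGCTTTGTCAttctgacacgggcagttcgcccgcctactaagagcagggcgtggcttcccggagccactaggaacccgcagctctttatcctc
Gclm, chr3:122245307-122245556: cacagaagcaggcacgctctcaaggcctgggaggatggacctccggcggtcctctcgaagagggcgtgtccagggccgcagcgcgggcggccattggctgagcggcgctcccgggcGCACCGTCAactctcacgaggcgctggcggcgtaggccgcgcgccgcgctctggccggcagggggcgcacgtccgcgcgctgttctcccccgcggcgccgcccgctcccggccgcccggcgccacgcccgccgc
Nox4, chr7:87246399-87246648: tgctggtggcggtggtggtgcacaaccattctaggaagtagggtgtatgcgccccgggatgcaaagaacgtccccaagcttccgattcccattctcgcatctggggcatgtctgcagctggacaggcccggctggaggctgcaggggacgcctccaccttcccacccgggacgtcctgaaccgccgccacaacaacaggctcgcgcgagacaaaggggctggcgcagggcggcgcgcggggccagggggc
Srxn1 has 2 matches to the AP-1 motif, at -102 and -45 from the start counted at the first base of the match, and a match to the response element core at 28 after the start, outside the bases shown. Txnrd1 has a core match at -92 before its second start, and Gclm at -134, both on the opposite strand, so that the capitals read in reverse complement. The windows of Nox4, Gpx3, Cat and Nqo1 held neither motif. A match is a description of letters, and binding was not measured.

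The subunits of glutamate-cysteine ligase, which catalyses the first and limiting step of glutathione synthesis, changed in opposite directions at day 14 after bleomycin. Gclc encodes the catalytic subunit (chromosome 9, 77754535 to 77794485) and Gclm the modifier that lowers feedback inhibition by glutathione (chromosome 3, 122245557 to 122270732). Gclc had 6.26 and 7.25 RPKM in sham, 4.28, 4.87 and 4.52 RPKM at day 14 after bleomycin, 3.70, 3.93, 6.98, 4.14 and 4.69 RPKM at day 30, and 6.49, 6.68 and 5.04 RPKM after pneumonectomy. The day 14 bleomycin libraries were below both sham and all pneumonectomy libraries, and at day 30 only replicate 3, the library with the epithelial markers, reached the sham range. The change was -0.79 ± 0.23 at day 14 after bleomycin (adjusted p = 0.00928), lost without sham replicate 2 (-0.69, adjusted p = 0.0676), and -0.67 ± 0.21 at day 30 (adjusted p = 0.0323). Without day 30 replicate 3 the latter was -0.82 (adjusted p = 0.00181), and it was lost without either sham library (-0.77 and -0.57, adjusted p = 0.0792 and 0.197), without day 30 replicate 2, 4 or 5, and in 4 of the other settings (adjusted p = 0.0572 to 0.134).

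Gclm had 1.97 and 2.04 RPKM in sham, 3.62, 3.93 and 3.54 RPKM at day 14 after bleomycin, 2.15, 1.97, 2.37, 2.12 and 2.04 RPKM at day 30, and 2.37, 2.23 and 2.71 RPKM after pneumonectomy. The day 14 bleomycin libraries were above all others. Gclm was higher than sham by 0.61 ± 0.09 at day 14 after bleomycin (adjusted p = 0.000124) and by 0.48 ± 0.09 after pneumonectomy (adjusted p = 0.00181), and it fell by 0.65 ± 0.07 from day 14 to day 30 (adjusted p = 1.60e-05). The ratio of Gclm to Gclc within a library, which does not depend on the scaling between libraries, was 0.315 and 0.282 in sham, 0.848, 0.807 and 0.782 at day 14 after bleomycin, 0.582, 0.502, 0.339, 0.512 and 0.434 at day 30, and 0.365, 0.334 and 0.537 after pneumonectomy. It was highest in the day 14 bleomycin libraries, lowest in sham, and overlapped between day 30 and pneumonectomy, with the lowest day 30 value in replicate 3.

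Nqo1, the quinone reductase gene often read as a sign of NRF2 activity (chromosome 8, 107388225 to 107403206), was the least expressed of the 10 genes and changed little. It had 1.35 and 1.03 RPKM in sham, 1.60, 1.44 and 1.34 RPKM at day 14 after bleomycin, 1.23, 1.32, 1.14, 1.14 and 1.22 RPKM at day 30, and 1.38, 1.39 and 1.49 RPKM after pneumonectomy. Sham replicate 2 had the lowest level of all 13 libraries. Sham replicate 1 lay within the day 14 bleomycin range, above all day 30 libraries and below all pneumonectomy libraries. The change after pneumonectomy was 0.45 ± 0.12 (adjusted p = 0.0111), which was lost without sham replicate 2 (0.27, adjusted p = 0.152), on the scale as deposited (0.24, adjusted p = 0.0931) and with the compared groups alone (0.44, adjusted p = 0.0593). At day 14 after bleomycin it was 0.05 ± 0.12 (adjusted p = 0.723). The direct difference between bleomycin and pneumonectomy at day 14 was -0.40 ± 0.11 (adjusted p = 0.00571), but it rested on the scaling, because the deposited values overlapped and gave 0.04 (adjusted p = 0.764).

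Set directly against pneumonectomy, 0 of the 10 genes were higher and 8 lower at day 14 after bleomycin in the limma fit (0 and 8 at an unadjusted p under 0.05), where 36.2% of all genes were higher and 34.6% lower, and Gclm (0.13 ± 0.08) and Cat (-0.28 ± 0.15) were not called. Their median was -1.06, beside 0.02 over all genes. On the scale as deposited, where the median of all genes was 0.47 and the calls split into 7918 higher and 2307 lower in place of 4684 and 4474, 1 gene was higher (Gclm, 0.59, adjusted p = 4.52e-05) and 5 lower (Hmox1, Sod3, Txnrd1, Nox4 and Srxn1). With upper-quartile scaling Gclm was higher too (0.24, adjusted p = 0.0182) and 8 genes were lower. Hmox1 showed the widest difference, at -2.08 ± 0.14 (adjusted p = 2.45e-07).

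Between day 14 and day 30 after bleomycin, 3 of the 10 genes rose (Nox4, Sod3 and Cat), 3 fell (Gclm, Hmox1 and Txnrd1) and 4 were not called, where 28.9% of all genes were higher and 30.7% lower. For 5 of these 6 the day 30 mean of the deposited values lay between the day 14 and sham means. On the fitted scale this was not so for Gclm, which at day 30 was slightly below sham and not called. Its change was -0.07 to -0.01 when any 1 library was left out, and that of Cat was -0.13 to 0.04. In the deposited values the exception was Cat, whose day 30 mean of 14.4 ± 2.93 RPKM includes the 19.5 RPKM of replicate 3. The Txnrd1 change of -0.34 ± 0.13 (adjusted p = 0.0362) was lost without any of 5 single libraries (adjusted p = 0.0616 to 0.146) and with upper-quartile scaling (-0.30, adjusted p = 0.0573). On the scale as deposited 2 genes were higher and 4 lower, and all genes split into 2785 higher and 5213 lower in place of 3739 and 3972. The day 30 libraries differed from the day 14 libraries also in sex and depth, which cannot be told apart from time.

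At day 30, 0 of the 10 genes were higher than sham and 1 lower, where 14.8% of all genes were higher and 14.1% lower. That gene was Gclc, as described. In the limma fit 1 gene was higher (Hmox1) and 2 lower (Gclc and Sod3) at an unadjusted p under 0.05. Hmox1 was called higher on the scale as deposited (0.52, adjusted p = 0.0207), with upper-quartile scaling (0.42, adjusted p = 0.04) and with the compared groups alone (0.41, adjusted p = 0.0405). Over all genes the scale as deposited gave 3105 higher and 957 lower, in place of 1912 and 1819. Against pneumonectomy, 0 of the 10 genes were higher at day 30 and 9 lower in the limma fit, with the same counts at an unadjusted p under 0.05, where 28.5% of all genes were higher and 29.0% lower, and Cat was not called (0.15 ± 0.13). On the scale as deposited Cat was higher (0.49, adjusted p = 0.00532), 6 genes were lower, and all genes split into 7408 and 1725 in place of 3693 and 3756 (5285 and 2704 with upper-quartile scaling). The difference of Hmox1 was -2.46 ± 0.13 (adjusted p = 2.44e-07) and that of Sod3 -1.10 ± 0.07 (adjusted p = 8.20e-07).

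Of 12 NRF2 regulators 11 were tested. After pneumonectomy 9 were higher and 1 lower than sham, with a median of 0.46, where 22.6% of all genes were higher and 19.3% lower. At day 14 after bleomycin 2 were higher and 7 lower, with a median of -0.32, where 33.4% were higher and 29.9% lower. On the scale as deposited these counts were 5 and 2 after pneumonectomy and 4 and 3 after bleomycin, so that the majority after bleomycin turned. Nfe2l2 itself had 17.1 ± 1.06 RPKM in sham, 14.7 ± 0.706 at day 14 after bleomycin, 14.3 ± 1.27 at day 30 and 22.1 ± 2.70 after pneumonectomy, with changes of -0.46 ± 0.12, -0.39 ± 0.11 and 0.58 ± 0.12 against sham (adjusted p = 0.00591, 0.0234 and 0.00284). The day 14 bleomycin change was not called on the scale as deposited (-0.21, adjusted p = 0.118). Keap1, its negative regulator, went the other way, from 3.52 ± 0.139 RPKM in sham to 5.21 ± 0.168 after bleomycin (0.31 ± 0.11, adjusted p = 0.0271) and 2.30 ± 0.473 after pneumonectomy (-0.40 ± 0.11, adjusted p = 0.0142). Sqstm1 encodes p62, which sequesters KEAP1, and had 51.3 ± 5.03 RPKM in sham, 47.7 ± 0.512 after bleomycin and 144 ± 8.99 after pneumonectomy (1.72 ± 0.09, adjusted p = 8.83e-07).

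The repressor Bach1 rose after pneumonectomy as well, from 4.64 ± 0.474 to 10.9 ± 0.616 RPKM (1.44 ± 0.09, adjusted p = 1.87e-06), and at day 14 after bleomycin it had 6.32 ± 0.412 RPKM (0.20 ± 0.09, adjusted p = 0.0685, called on the scale as deposited at 0.44, adjusted p = 0.00139). The small MAF gene Maff had 24.3 ± 8.88 RPKM in sham, 10.0 ± 0.338 after bleomycin (-1.46 ± 0.31) and 105 ± 22.3 after pneumonectomy (2.36 ± 0.31), and Mafk showed the same order with 12.98 ± 4.14, 6.14 ± 1.01 and 26.8 ± 1.51 RPKM. Sqstm1, Bach1 and Maff were thus all higher after pneumonectomy than after bleomycin at the same day, by log2 differences of bleomycin minus pneumonectomy of -2.06 ± 0.08, -1.23 ± 0.08 and -3.82 ± 0.28.

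**Figure D5:**
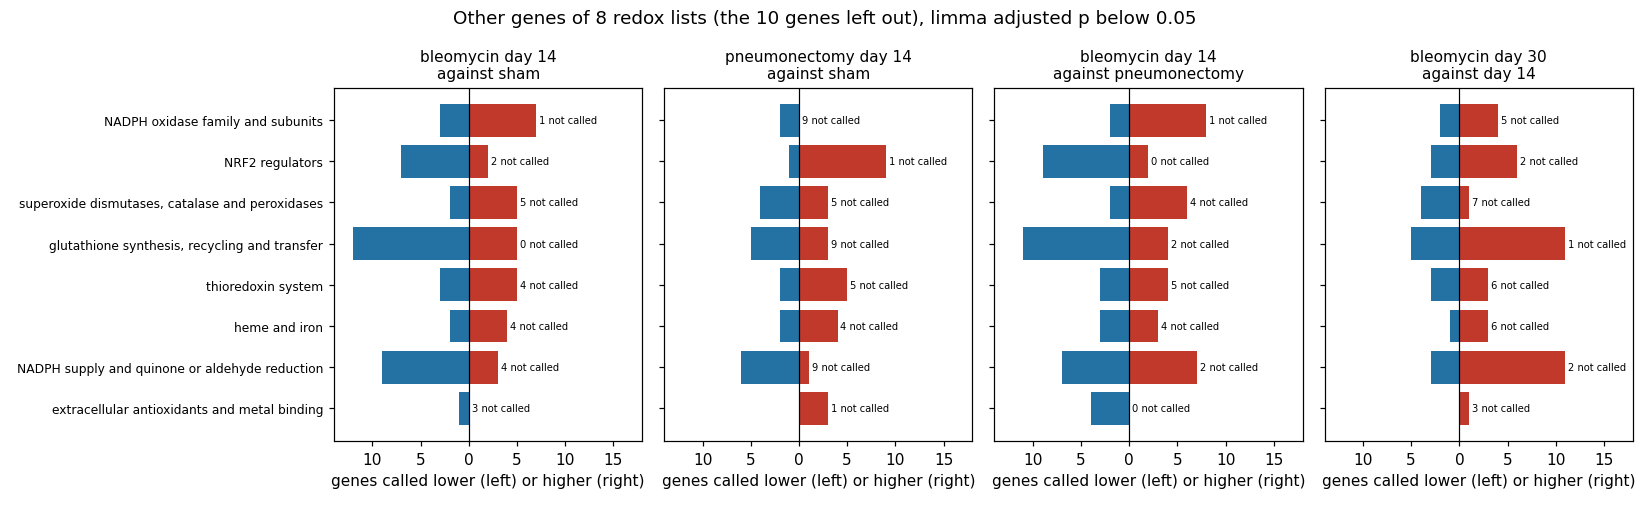
Numbers of genes called lower (left of 0) and higher (right of 0) in 8 lists of redox genes without the 10 genes, in 4 comparisons, with the number not called beside each bar. NRF2 regulators are mostly higher after pneumonectomy (9 of 11) and glutathione genes mostly lower at day 14 after bleomycin (12 of 17).

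Of 22 genes of glutathione synthesis, recycling and transfer 17 were tested, and at day 14 after bleomycin 5 were higher and 12 lower than sham (median -1.08), where 33.4% of all genes were higher and 29.9% lower (median 0.02). The counts were 5 and 11 on the scale as deposited. The endothelial markers were at 298 to 578 RPKM in these libraries against 13.2 to 44.5 RPKM elsewhere. Of the 6 fibroblast markers 3 were lower than sham, among them Dcn and Lum, and 1 was higher (Col1a1), beside the same shares of all genes. The other 2 were not called. The part of these cells in the levels of this list was not tested. The lower genes were led by transferases: Gstm1 went from 150.3 ± 3.39 to 23.2 ± 7.21 RPKM (-2.98 ± 0.26, adjusted p = 2.04e-06), and Gsta3, Gstt3 and Gstt1 changed by -1.97 ± 0.14, -1.64 ± 0.12 and -1.47 ± 0.11. From day 14 to day 30 all 4 of these rose, by 2.04 ± 0.21, 0.90 ± 0.12, 1.25 ± 0.09 and 1.08 ± 0.09, and 11 genes of the list were higher and 5 lower than at day 14, beside 28.9% and 30.7% of all genes, while Gstm1 was still below sham at day 30 (-0.95 ± 0.24). After pneumonectomy 3 were higher, 5 lower and 9 not called (median -0.12), beside the shares of 22.6% and 19.3% over all genes, with 2 higher and 9 lower on the scale as deposited. Slc3a2, the heavy chain of amino acid exchangers that include the cystine carrier, rose after both, by 1.70 ± 0.17 to 28.2 ± 4.94 RPKM after pneumonectomy and by 1.28 ± 0.17 to 29.1 ± 4.93 RPKM after bleomycin.

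Among 12 tested superoxide dismutases and peroxidases, 5 were higher and 2 lower than sham at day 14 after bleomycin (9 and 1 on the scale as deposited), beside 33.4% and 29.9% of all genes, with a median of 0.18. Prdx5 and Prdx1, peroxiredoxins, changed by 0.99 ± 0.08 and 0.75 ± 0.10, the first from 8.36 ± 0.0639 to 19.7 ± 0.783 RPKM. After pneumonectomy 3 were higher and 4 lower (1 and 6 on the scale as deposited), beside 22.6% and 19.3% of all genes. The higher ones include Sod2, the mitochondrial superoxide dismutase, at 11.3 ± 1.55 against 4.71 ± 0.173 RPKM (1.46 ± 0.14, adjusted p = 2.18e-05). In the thioredoxin list 5 of 12 were higher and 3 lower after bleomycin, and 5 higher and 2 lower after pneumonectomy (1 and 4 on the scale as deposited and 2 and 3 with upper-quartile scaling, where the majority turned). The background shares are those just given, and the medians were 0.07 and 0.27. Txn1, the cytosolic thioredoxin, had 25.6 ± 0.374 RPKM in sham, 60.1 ± 4.85 at day 14 after bleomycin (0.98 ± 0.12, adjusted p = 3.27e-05) and 27.7 ± 2.15 after pneumonectomy.

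Among 10 tested genes of heme and iron, 4 were higher and 2 lower than sham both after bleomycin and after pneumonectomy (4 and 1, and 4 and 4, on the scale as deposited). Over all genes 33.4% were higher and 29.9% lower after bleomycin and 22.6% and 19.3% after pneumonectomy, and the medians of the list were 0.24 and 0.096. Slc40a1, the iron exporter ferroportin that macrophages also express, rose by 2.97 ± 0.31 at day 14 after bleomycin, from 0.255 ± 0.0587 to 3.13 ± 0.211 RPKM, beside the higher macrophage markers. In day 14 bleomycin replicates 1, 2 and 3 Slc40a1 had 3.37, 2.99 and 3.02 RPKM, where the macrophage markers summed to 155, 512 and 385 RPKM. The part of macrophages in its level was not tested. Alas1, the first enzyme of heme synthesis, rose by 1.53 ± 0.20 after pneumonectomy, to 8.93 ± 0.834 RPKM, and Blvrb, a biliverdin reductase, fell by 1.01 ± 0.14 after bleomycin and by 0.82 ± 0.14 after pneumonectomy. Of 16 genes of NADPH supply and of quinone or aldehyde reduction, 3 were higher and 9 lower after bleomycin (6 and 7 on the scale as deposited) and 1 higher and 6 lower after pneumonectomy, with medians of -0.30 and -0.13 beside the same shares over all genes. Nqo2, the relative of Nqo1, fell by 1.20 ± 0.10 after bleomycin and by 0.96 ± 0.10 after pneumonectomy, while the aldo-keto reductase gene Akr1b8 rose by 1.25 ± 0.13 after bleomycin, to 16.2 ± 1.06 RPKM.

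Of 4 other tested genes of extracellular antioxidants and metal binding, 3 were higher and 0 lower after pneumonectomy and 0 higher and 1 lower at day 14 after bleomycin in the limma fit (3 and 1, and 0 and 2, at an unadjusted p under 0.05), beside 22.6% higher and 19.3% lower over all genes for the former and 33.4% and 29.9% for the latter. The metallothionein genes Mt1 and Mt2 had 260.0 ± 46.2 and 219 ± 53.8 RPKM after pneumonectomy (1.27 ± 0.35 and 1.4002 ± 0.43), and Cp, the ferroxidase ceruloplasmin, had 30.8 ± 2.85 RPKM (1.31 ± 0.21). The lower gene was Sepp1, which encodes the selenium carrier selenoprotein P, at 47.5 ± 16.6 RPKM after bleomycin against 155 ± 47.6 RPKM in sham (-1.98 ± 0.31, adjusted p = 0.000186).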

How the data were processed

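Poly(A) RNA of 13 libraries was sequenced. The authors deposited 1 table of RPKM per gene and library, on mm10 (also listed as GRCm38) per the submitters' processing notes; the aligner and the counting are not given in the sources used here, and strand use is not stated. RPKM as deposited were divided by a scaling factor of the trimmed-mean type (30% of ratios and 5% of levels trimmed), and log2(value + 0.1) was fitted for all 13 libraries with limma 3.58.1 in R 4.3.3, with trend and robust empirical Bayes, on the 12938 of 43346 genes that reached 1 RPKM in 2 or more libraries. Changes are therefore on that log2 scale, which understates those of low genes. P-values are two-sided and Benjamini-Hochberg adjusted over all 12938 genes, and an adjusted p under 0.05 is a call. As the values are RPKM, the planned count model did not apply. Depth was estimated from the steps between low values, and reads per gene from GENCODE M21 lengths. The fit was checked on simulated data.

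The genes, lists and tests were chosen with earlier results of these data known. Beside the 10 genes, those named were, of each pathway list, up to 4 called genes with the smallest p at day 14 after bleomycin against sham and up to 3 in each of pneumonectomy against sham, bleomycin against pneumonectomy and day 30 against day 14; the 5 genes most correlated with Nox4; and Nfe2l2, Keap1, Bach1 and Cyba. Alternatives were a pseudocount of 1, no filter, no scaling, upper-quartile scaling, the compared groups alone, a replicate block, plain empirical Bayes and leaving out each library. Lymphocyte and erythroid markers were also examined.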

Additional observations from a re-analysis of the deposited data

Results flagged for a closer look

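Cat in day 30 bleomycin replicate 3, at 19.5 RPKM, lay apart from the other 4 libraries of its group (12.4 to 13.9 RPKM): its gap to the nearest library was 0.792 of the range of the group, above Dixon's 95% critical value for 5 libraries. Chance alone flags about 1 in 20 groups, and 10 genes were examined in this group, the only one large enough. Gclc was highest in the same library, at 6.98 RPKM against 3.70 to 4.69 RPKM in the others, without passing that limit. The library also held 1206 RPKM of alveolar epithelial markers and 144 RPKM of airway markers, whose part in these levels was not tested. Without it the day 30 change of Cat against sham was -0.13 and that of Gclc -0.82.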

How the results depend on the processing

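Nox4 and Sod3 were called lower at day 14 after bleomycin than in sham and after pneumonectomy, and higher at day 30 than at day 14, in every alternative run, as were Hmox1, Txnrd1, Srxn1, Sod3 and Gclm higher after pneumonectomy and Gclm and Hmox1 higher at day 14 after bleomycin, both against sham. The limits are the 2 sham libraries, of which 1 carries Xist and Y-linked transcripts together, the scaling between libraries, the sex of the day 30 libraries and the RNA of other cells. Depth limits Nqo1 most, with a counting error of 9.32% in its thinnest library against at most 3.61% for the others. The cause of the changes below was not tested.

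On the scale as deposited, calls over all genes were 2451 lower for day 14 bleomycin against sham, 1762 higher and 5185 lower for pneumonectomy against sham, 7918 higher and 2307 lower for day 14 bleomycin against pneumonectomy, 3105 higher and 957 lower for day 30 against sham, and 7408 higher and 1725 lower for day 30 against pneumonectomy. On that scale the log2 changes at day 14 after bleomycin against sham were -0.20 for Cat, 0.28 for Nqo1 and 0.18 for Srxn1, and after pneumonectomy against sham 0.16 for Nox4, 0.24 for Nqo1 and -0.16 for Gclc. For bleomycin against pneumonectomy at day 14 they were -0.39 for Gpx3, 0.18 for Cat, 0.0351 for Nqo1, -0.40 for Gclc and 0.59 for Gclm, and for day 30 against day 14 they were 0.31 for Cat, whose call was lost, -0.25 for Nqo1, -0.11 for Srxn1 and -0.0525 for Nfe2l2. For day 30 against sham they were 0.0604 for Gpx3, 0.11 for Cat, 0.0307 for Nqo1, 0.52 for Hmox1, -0.55 for Gclc, 0.0791 for Gclm and 0.0671 for Srxn1, and against pneumonectomy -0.20 for Gpx3, 0.49 for Cat, -0.21 for Nqo1 and -0.39 for Gclc.

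Upper-quartile scaling gave 3994 genes lower after pneumonectomy than in sham, where Nox4 was 0.25 and Gclc -0.0669. It gave 0.37 for Txnrd1 at day 14 after bleomycin against sham, 0.24 for Gclm against pneumonectomy, -0.30 for Txnrd1 from day 14 to day 30, 0.0098 for Cat and 0.42 for Hmox1 at day 30 against sham, and -0.40 for Gpx3 at day 30 against pneumonectomy. With the compared groups alone, 1931 genes were higher and 1443 lower after pneumonectomy than in sham, with 0.44 for Nqo1, whose call was lost. That setting gave 0.34 for Txnrd1 at day 14 after bleomycin against sham, -0.31 for Cat against pneumonectomy, 0.33 for Gpx3 from day 14 to day 30, and 0.0032 for Cat, 0.41 for Hmox1 and -0.66 for Gclc at day 30 against sham. Without the filter Cat was -0.36 and Srxn1 0.0132 at day 14 after bleomycin against sham, Srxn1 -0.0247 from day 14 to day 30, Cat 0.0325, Gclc -0.63 and Gclm 0.0031 at day 30 against sham, and Gpx3 -0.50 at day 30 against pneumonectomy. Txnrd1 at day 14 after bleomycin against sham was 0.36 with a pseudocount of 1 and 0.39 with plain empirical Bayes.

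Same-numbered libraries of the sham and bleomycin groups did not deviate together (correlations of -0.127 to 0.136), so no pairing by number was seen. The 2 sham libraries deviate from their mean by equal and opposite amounts, so this check cannot exclude pairing. With the replicate block, day 30 against sham gave 280 genes higher and 89 lower, with 0.0144 for Nqo1 and -0.76 for Gclc, Txnrd1 at day 14 after bleomycin against sham was 0.36, and Hmox1 from day 14 to day 30 was -0.31. No paired analysis was possible because the pneumonectomy columns carry no replicate numbers, which holds for the 3 comparisons with that group.

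Leaving out 1 library at a time, the ranges at day 14 after bleomycin against sham were -0.92 to 0.16 for Gpx3, -0.45 to -0.41 for Cat, -0.13 to 0.23 for Nqo1, -0.90 to -0.69 for Gclc, 0.25 to 0.52 for Txnrd1 and -0.20 to 0.0612 for Srxn1. After pneumonectomy against sham 1930 to 2616 genes were higher and 1411 to 2463 lower, both lowest without sham replicate 2, and the ranges were 0.35 to 0.41 for Nox4, -0.0513 to 1.02 for Gpx3, 0.27 to 0.64 for Nqo1 and -0.0407 to 0.20 for Gclc. From day 14 to day 30 they were -0.50 to -0.24 for Hmox1, -0.0285 to 0.20 for Gclc, -0.41 to -0.26 for Txnrd1 and -0.11 to 0.15 for Srxn1. At day 30 against sham 994 to 2067 genes were higher and 791 to 2018 lower, and the ranges were -0.60 to 0.48 for Gpx3, -0.13 to 0.0395 for Cat, -0.26 to 0.10 for Nqo1, 0.34 to 0.45 for Hmox1, -0.82 to -0.57 for Gclc and -0.0815 to 0.18 for Txnrd1. At day 30 against pneumonectomy Gpx3 ranged from -0.68 to -0.44 and lost its call without any of 7 of 8 libraries.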

Other observations

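Among the 10 genes, the 2 secreted enzymes Sod3 and Gpx3 had the highest mean levels per length over the 13 libraries, at 129.6 and 182 RPKM, in the 99.3 and 99.6 percentile of the genes tested. Nqo1 (1.31 RPKM, percentile 22.3) and Gclm (2.54 RPKM, percentile 43.5) had the lowest. Their spread between libraries of a group differed as well: the sham libraries of Gpx3 had 184 ± 92.9 RPKM, while those of Sod3 had 128 ± 1.74 RPKM, and the pneumonectomy libraries of Srxn1 had 13.4 ± 3.52 RPKM while those of Nox4 had 9.90 ± 0.320 RPKM.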
